A study of Homo sapiens with 12 samples.

Results

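HLA class I presentation genes were followed in SUDHL6 and SUDHL16, human diffuse large B-cell lymphoma (DLBCL) cell lines, and in the venetoclax-resistant derivative of each. Venetoclax (ABT-199) inhibits the anti-apoptotic protein BCL2. The genes were 9 in number, of 60675 Ensembl identifiers with a read count in each library: the heavy chains HLA-B, HLA-C, HLA-E and HLA-F, the light chain B2M, the peptide transporter subunits TAP1 and TAP2, the loading factor TAPBP and the transcriptional regulator NLRC5. They were chosen by function, and each was taken as the GENCODE gene of that symbol on the primary assembly. Whether their RNA differs once a line has acquired venetoclax resistance was asked separately in each line.

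The SUDHL6-parental libraries are CE-7, CE-8 and CE-9, and the SUDHL6-resistant libraries CE-10, CE-11 and CE-12. The SUDHL16-parental libraries are CE-25, CE-26 and CE-27, and the SUDHL16-resistant libraries CE-28, CE-29 and CE-30. The resistant cells came from chronic exposure of the parental cells to rising venetoclax concentrations, were able to grow at 10 times the original IC50 and were maintained in the drug, so each resistant group is a single derived line. No label states that the 3 libraries of a group came from separate cultures, and p-values then measure only the spread between these libraries, which may be technical. SUDHL6 libraries were made with NEBNext Ultra II for the HiSeq and SUDHL16 libraries with Illumina Stranded Total RNA with Ribo-Zero Plus for the NovaSeq, so kit and sequencer cannot be told apart from the line when the lines are set side by side.

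Total counts were 33992784 to 40885665 in the 6 SUDHL6 libraries and 14335460 to 22068221 in 5 of the 6 SUDHL16 libraries. The SUDHL16-parental library CE-26 stood apart, with 4131927 counts, 34938 identifiers detected against 20896 to 24655 in the other SUDHL16 libraries, and 31.9% of its counts on identifiers without a GENCODE match against 1.61% to 5.06%. Of 5734 protein-coding genes at 0 in CE-25 and CE-27, 3681 (64.2%) had a count in CE-26. The SUDHL16 change of each of the 9 genes is therefore given with and without it, as are the other calls it alters. The defining B-cell markers were detected in all 4 groups, with none of the 6 at 0. They summed to 3957 to 4154 CPM in SUDHL6 and 2334 to 3933 CPM in SUDHL16. CPM is a gene's count relative to the library's total after scaling between libraries.

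Class I molecules display peptides from inside the cell to CD8 T cells. The heavy chain spans the membrane and pairs with beta-2 microglobulin, the product of B2M. TAP1 and TAP2 form the transporter that carries peptides from the cytosol into the endoplasmic reticulum, where tapasin, the product of TAPBP, holds the empty heavy chain to the transporter until a peptide is bound. HLA-B and HLA-C are classical, highly polymorphic heavy chains, HLA-E presents leader peptides to NKG2A receptors of natural killer cells, and HLA-F is a less abundant nonclassical heavy chain. NLRC5 is the class I counterpart of CIITA, the master regulator of class II genes, and acts at promoters of heavy chain genes, B2M and TAP1. In B-cell lymphomas, reduced class I presentation through lost B2M or heavy chains is a known route of immune escape.

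Of the genes, 7 lie in the major histocompatibility complex on chromosome 6. In GRCh38 with GENCODE release 44 annotation these are HLA-F (ENSG00000204642, chr6:29722775-29738528, plus strand), HLA-E (ENSG00000204592, chr6:30489509-30494194, plus), HLA-C (ENSG00000204525, chr6:31268749-31272130, minus), HLA-B (ENSG00000234745, chr6:31353872-31367067, minus), TAP2 (ENSG00000204267, chr6:32821833-32838739, minus), TAP1 (ENSG00000168394, chr6:32845209-32853816, minus) and TAPBP (ENSG00000231925, chr6:33299694-33314284, minus). B2M (ENSG00000166710, chr15:44711358-44718851, plus) and NLRC5 (ENSG00000140853, chr16:56989485-57083531, plus) lie elsewhere.

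Promoter sequences are shown because the heavy chain and B2M promoters share an arrangement of elements while the RNA of these genes moved differently. RefSeq (GRCh38.p14) gave a promoter for 7 of the 9 genes, all but HLA-E and NLRC5. The 250 bases before each start site were searched on both strands for the interferon regulatory factor core AANNGAAA, the CRE half-site TGACG and the Y box AGCCAATCA, a CCAAT element bound by NF-Y, all picked after the sequences had been seen. Capitals mark the matches in the 200 bases before the start, written 5′ to 3′ along the gene's strand. HLA-B (chr6:31357180-31357379, minus) and HLA-C (chr6:31272093-31272292, minus) each held all 3 motifs in the same order, and 87.7% of their aligned positions were identical.
HLA-B: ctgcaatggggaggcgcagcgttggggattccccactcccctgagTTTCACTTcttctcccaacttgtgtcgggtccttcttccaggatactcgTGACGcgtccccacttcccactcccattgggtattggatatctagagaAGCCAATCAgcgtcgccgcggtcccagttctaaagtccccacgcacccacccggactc
HLA-C: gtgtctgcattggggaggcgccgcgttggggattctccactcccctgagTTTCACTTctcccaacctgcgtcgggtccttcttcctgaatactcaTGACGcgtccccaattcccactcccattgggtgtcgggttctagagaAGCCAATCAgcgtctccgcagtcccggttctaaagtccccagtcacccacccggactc
HLA-F (chr6:29723234-29723433, plus) was 80.8% identical to HLA-B and held the interferon core and the Y box. B2M (chr15:44711317-44711516, plus), 46.4% identical to HLA-B, held a pair of overlapping interferon cores, the CRE half-site and, on the other strand, the Y box.
HLA-F: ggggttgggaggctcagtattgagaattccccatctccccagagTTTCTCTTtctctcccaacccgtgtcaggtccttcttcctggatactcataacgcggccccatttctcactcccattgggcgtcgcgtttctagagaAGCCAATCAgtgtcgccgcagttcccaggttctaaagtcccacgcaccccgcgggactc
B2M: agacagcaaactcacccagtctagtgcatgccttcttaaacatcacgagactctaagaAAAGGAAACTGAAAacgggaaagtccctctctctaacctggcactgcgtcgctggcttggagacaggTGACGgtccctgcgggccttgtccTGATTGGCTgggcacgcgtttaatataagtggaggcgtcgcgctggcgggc
TAP1 (chr6:32853705-32853904, minus, the upstream one of 2 starts listed by RefSeq) and TAP2 (chr6:32838740-32838939, minus) each held a pair of overlapping interferon cores, and TAP2 a CRE half-site as well.
TAP1: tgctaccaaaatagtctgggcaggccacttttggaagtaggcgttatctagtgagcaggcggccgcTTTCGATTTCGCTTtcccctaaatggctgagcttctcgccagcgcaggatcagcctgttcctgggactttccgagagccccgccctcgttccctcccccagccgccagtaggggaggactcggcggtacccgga
TAP2: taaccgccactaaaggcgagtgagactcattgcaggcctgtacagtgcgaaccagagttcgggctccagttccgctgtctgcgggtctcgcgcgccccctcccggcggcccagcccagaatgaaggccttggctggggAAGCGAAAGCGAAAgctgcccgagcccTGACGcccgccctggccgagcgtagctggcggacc
TAPBP held a pair of overlapping interferon cores at -18 to -5 from its start. The Y box ended 50 bases before the start in HLA-B and HLA-C, 51 bases in HLA-F and 43 bases in B2M. Among 35116 RefSeq promoters searched the same way, 20.3% held the interferon core, 21.2% the CRE half-site and 1.54% the Y box, and 94 (0.268%) held both the core and the Y box. A match describes the letters and is not evidence of a bound site.

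In SUDHL16, HLA-B, TAP1 and NLRC5 were higher in each resistant library than in each parental library, while HLA-C, HLA-E, HLA-F, B2M, TAP2 and TAPBP overlapped between the groups. HLA-B differed by 61.0-fold and TAP1 by 4.35-fold. In SUDHL6, 8 of the 9 genes were tested and all 8 were higher in each resistant library, by at most 1.28-fold. Values below are CPM on the trimmed mean of M-values (TMM) scale. The TMM factor was 0.727 for CE-26 and 1.04 to 1.09 for the other SUDHL16 libraries, which raises CPM in CE-26 relative to plain totals. Tests are two-sided quasi-likelihood tests from edgeR, with p-values adjusted by Benjamini-Hochberg over all genes tested in the line, a called gene had an adjusted p under 0.05 and differed by 1.5-fold or more, and SE is the standard error of a log2 fold change.

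**Figure D1:**
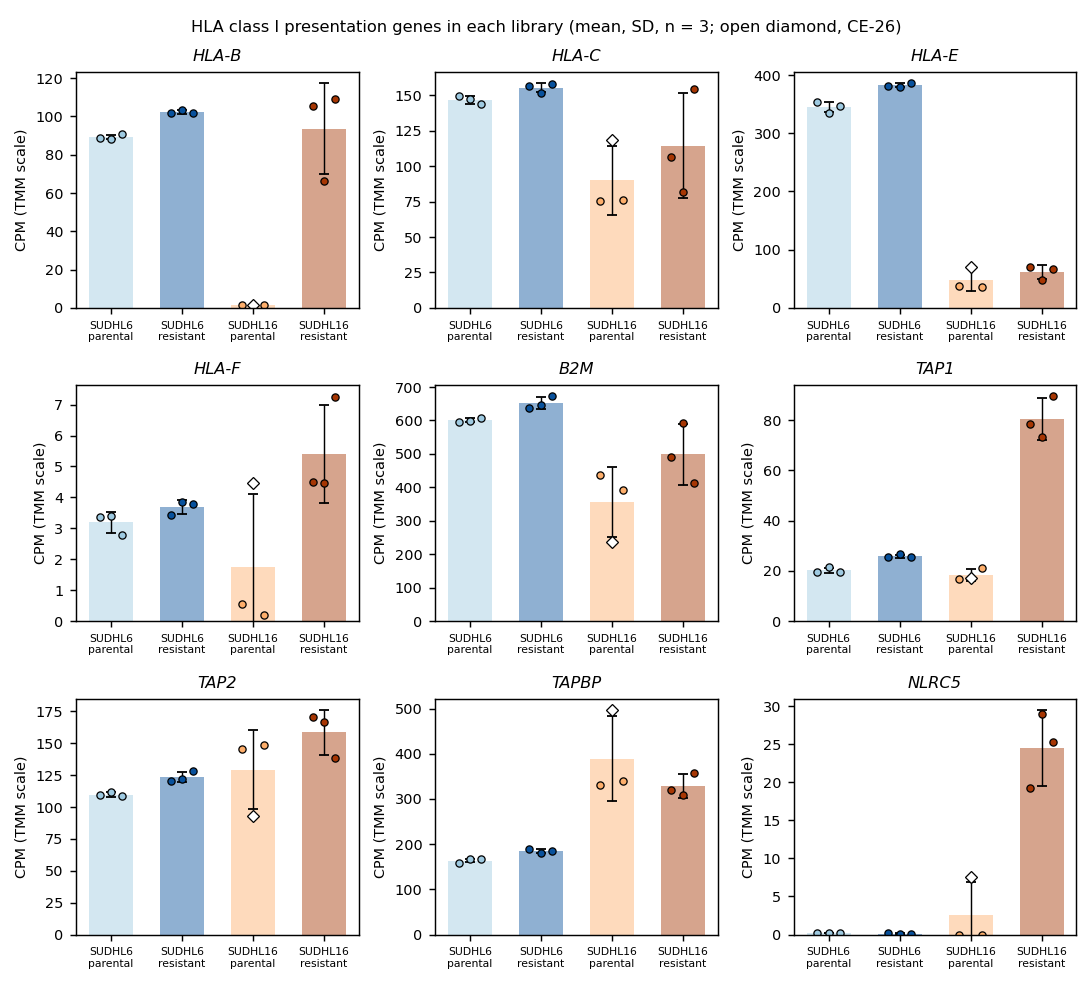
CPM (TMM scale, linear axes from 0) of each of the 9 genes in the 12 libraries, where bars are group means, error bars the SD of 3 libraries, points single libraries and the open diamond CE-26. HLA-B was below 2 CPM in the SUDHL16-parental libraries and between 66.2 and 109 CPM in the resistant ones, whereas the SUDHL6 bars of each gene lie close together.

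HLA-B is a classical heavy chain that presents peptides to CD8 T cells. Its level in SUDHL16 was 1.54, 1.72 and 1.43 CPM in CE-25, CE-26 and CE-27 and 105, 66.2 and 109 CPM in CE-28, CE-29 and CE-30. The parental values rested on 28, 5 and 23 reads and the resistant ones on 1571, 1406 and 2568. All 3 parental libraries were alike in this gene, CE-26 included, and the lowest resistant library was far above them. The means were 1.56 ± 0.148 and 93.5 ± 23.8 CPM (SD, n = 3 each), a log2 fold change of 5.93 (SE 0.33, edgeR adjusted p = 3.02e-04). Without CE-26 it was 5.98 (SE 0.37, edgeR adjusted p = 1.05e-04).

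In SUDHL6, HLA-B was at 88.9, 88.3 and 90.7 CPM in the parental libraries and 101.6, 103.6 and 101.8 CPM in the resistant ones. The groups did not overlap, and the means of 89.3 ± 1.21 and 102.3 ± 1.10 CPM (SD, n = 3 each) gave a log2 fold change of 0.20 (SE 0.03, edgeR adjusted p = 5.84e-05), which is under 1.5-fold. Side by side, the SUDHL16-resistant mean lay among the SUDHL6 means and the SUDHL16-parental mean far below them, a comparison that was not tested since kit and sequencer differ.

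HLA-C, the neighbouring classical heavy chain and also a ligand of killer-cell receptors, was present in every group. In SUDHL16 it was at 75.2, 118 and 76.2 CPM in CE-25, CE-26 and CE-27 and 107, 81.9 and 155 CPM in the resistant libraries. On the TMM scale CE-26 was the highest parental library and lay above 2 of the 3 resistant ones, a place that depends on that scaling. The means of 89.9 ± 24.5 and 114 ± 36.9 CPM (SD, n = 3 each) gave a log2 fold change of 0.35 (SE 0.31, edgeR adjusted p = 0.610), and 0.61 (SE 0.29, edgeR adjusted p = 0.254) without CE-26. The SUDHL6 values were 149.5, 147 and 144 CPM against 156, 152 and 158 CPM, with a log2 fold change of 0.08 (SE 0.03, edgeR adjusted p = 0.0264).

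HLA-E, the NKG2A ligand, was the heavy chain with the highest level per kilobase in SUDHL6, at 353, 335 and 347 CPM in the parental and 381, 379.9 and 386 CPM in the resistant libraries. The resistant libraries were higher without overlap, with a log2 fold change of 0.15 (SE 0.02, edgeR adjusted p = 1.47e-04). In SUDHL16 it was at 37.2, 70.9 and 36.6 CPM in CE-25, CE-26 and CE-27 and 70.8, 48.8 and 67.4 CPM in the resistant libraries. CE-26 alone among the parental libraries reached the resistant range. The log2 fold change was 0.38 (SE 0.32, edgeR adjusted p = 0.579), and 0.77 (SE 0.24, edgeR adjusted p = 0.0868) without CE-26.

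HLA-F, a nonclassical heavy chain, was low throughout. In SUDHL16 it was at 0.551, 4.48 and 0.186 CPM in CE-25, CE-26 and CE-27, from 10, 13 and 3 reads, and at 4.49, 4.47 and 7.23 CPM in the resistant libraries, from 67, 95 and 170 reads. CE-26 lay within the resistant range, and the other parental libraries lay below it. The log2 fold change was 1.88 (SE 1.06, edgeR adjusted p = 0.388) with CE-26 and 3.84 (SE 0.66, edgeR adjusted p = 0.00840) without it, so the call depended on that library. In SUDHL6 the values were 3.38, 3.39 and 2.80 CPM against 3.43, 3.84 and 3.80 CPM, with a log2 fold change of 0.21 (SE 0.13, edgeR adjusted p = 0.248).

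B2M, the light chain required by every class I heavy chain, had the highest level per kilobase of the 9 genes in all 12 libraries. In SUDHL16 it was at 437, 238 and 391 CPM in CE-25, CE-26 and CE-27 and 489, 594 and 412 CPM in the resistant libraries. The groups overlapped at 437 and 412 CPM, and CE-26 was the lowest of the 6. The log2 fold change was 0.49 (SE 0.32, edgeR adjusted p = 0.470), and 0.28 (SE 0.23, edgeR adjusted p = 0.549) without CE-26. Its SUDHL6 values were 597, 599.9 and 609 CPM against 638, 646 and 672 CPM, a log2 fold change of 0.12 (SE 0.02, edgeR adjusted p = 5.75e-04).

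TAP1, one subunit of the peptide transporter, was at 16.6, 17.2 and 21.4 CPM in CE-25, CE-26 and CE-27 and 78.5, 73.4 and 89.4 CPM in the SUDHL16-resistant libraries. No library of one group approached the other, and CE-26 lay between the other parental libraries. The means of 18.4 ± 2.57 and 80.4 ± 8.20 CPM (SD, n = 3 each) gave a log2 fold change of 2.12 (SE 0.23, edgeR adjusted p = 0.00176), and 2.09 (SE 0.24, edgeR adjusted p = 0.00117) without CE-26. In SUDHL6 it was at 19.8, 21.5 and 19.6 CPM against 25.6, 26.6 and 25.4 CPM. Its log2 fold change there, 0.35 (SE 0.06, edgeR adjusted p = 3.66e-04), was the largest of the 8 genes tested in SUDHL6.

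TAP2, the partner subunit, was at 145, 93.3 and 148 CPM in the SUDHL16-parental libraries and 171, 167 and 138 CPM in the resistant ones. The groups overlapped, and CE-26 was the lowest library. The log2 fold change was 0.29 (SE 0.26, edgeR adjusted p = 0.620), and 0.12 (SE 0.21, edgeR adjusted p = 0.798) without CE-26. In SUDHL6 it was at 109, 112 and 108 CPM against 120.5, 122 and 128 CPM, a log2 fold change of 0.17 (SE 0.03, edgeR adjusted p = 4.60e-04).

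TAPBP, the tapasin gene, was the only one of the 9 with a lower resistant mean in SUDHL16. It was at 330.4, 497 and 339 CPM in CE-25, CE-26 and CE-27 and 321, 308 and 358 CPM in the resistant libraries. CE-26 was the highest of the 6, and the other libraries overlapped. The log2 fold change was -0.24 (SE 0.28, edgeR adjusted p = 0.709), and -0.01 (SE 0.20, edgeR adjusted p = 0.978) without CE-26. The SUDHL6 libraries held 159, 166 and 166 CPM against 190.3, 179 and 185 CPM, a log2 fold change of 0.17 (SE 0.03, edgeR adjusted p = 2.94e-04).

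NLRC5, the regulator of class I transcription, had 0, 22 and 0 reads in CE-25, CE-26 and CE-27 and 287, 616 and 596 reads in the SUDHL16-resistant libraries. On the CPM scale this was 0, 7.58 and 0 against 19.2, 28.99 and 25.4. The resistant libraries were all higher, and the only parental reads were in CE-26, where 453 (7.90%) of the protein-coding genes at 0 in both other parental libraries had at least as many reads. With CE-26 the log2 fold change was 3.91 (SE 1.61, edgeR adjusted p = 0.231). Without it the edgeR adjusted p was 1.65e-04, and against a floor of 3 counts in each of CE-25 and CE-27, a mean of 0.176 CPM, the resistant mean of 24.5 CPM was at least 139.5-fold higher. This floor covers counting error only. In SUDHL6 NLRC5 had 7, 9 and 9 reads in the parental and 9, 4 and 2 in the resistant libraries, 0.231 ± 0.0311 and 0.126 ± 0.0875 CPM (SD, n = 3 each), and was below the filter on low counts and not tested.

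In all, 2 of the 9 genes were called raised in SUDHL16 (HLA-B and TAP1), beside 3.2% of all 15708 genes tested called raised and 5.3% called in either direction. Without CE-26 4 of the 9 were called raised (HLA-F and NLRC5 in addition), beside 6.73% of genes. NLRC5 and HLA-F passed the filter on low counts through the libraries in which they were high. The resistant libraries did not overlap with the parental and were higher in 3 of the 9 genes, as in 14.6% of all genes tested. The median log2 fold change of the 9 was 0.49 against -0.02 for all genes, and 0.77 against 0.05 without CE-26. The raised genes were thus 1 of the 4 heavy chains and 1 of the 2 transporter subunits, and neither B2M nor TAPBP was called.

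In SUDHL6 none of the 8 tested genes was called, by edgeR or by DESeq2, beside 8.96% of all 16662 genes called in either direction and 4.31% called raised. At any size of change, 7 of the 8 (all but HLA-F) passed an adjusted p of 0.05 and were higher, beside 17.7% of genes. The same 7 had an unadjusted p under 0.05, as did 7523 of all 16662 genes in either direction. HLA-C no longer passed without CE-8, CE-9, CE-10 or CE-12, which left 6 of the 8. The 8 were higher in resistant libraries without overlap, as were 23.1% of all genes tested. Their median log2 fold change was 0.17 against -4.34e-05 for all genes, and the changes ran from 0.08 (HLA-C) to 0.35 (TAP1). Changes of this size could be told from 0 in SUDHL6, where the biological coefficient of variation was 0.0516, and not in SUDHL16, where it was 0.468 (0.339 without CE-26). The standard errors in SUDHL16, 0.23 to 1.61, mean that changes the size of those in SUDHL6 were not detectable there.

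**Figure D2:**
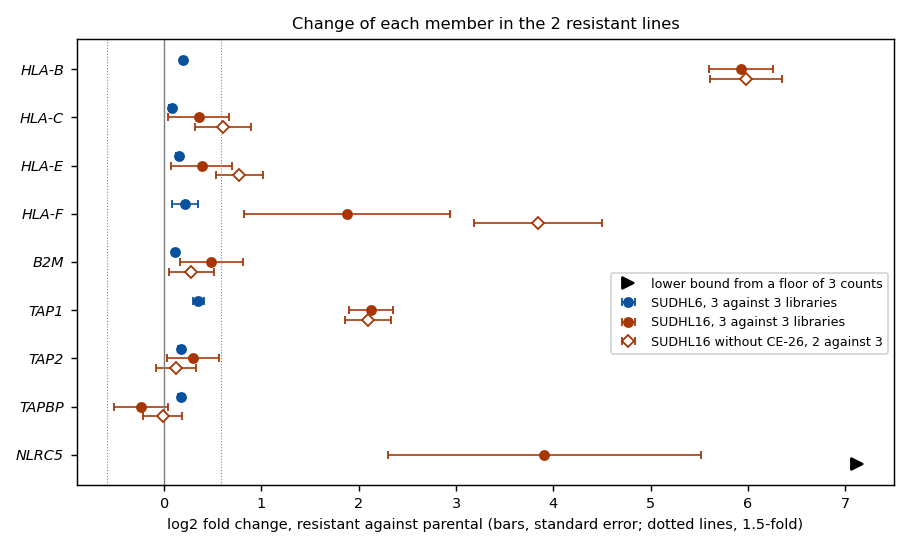
Log2 fold change of each gene, resistant against parental, in SUDHL6 and in SUDHL16 with and without CE-26, where bars are standard errors, dotted lines mark 1.5-fold and the black triangle is the lower bound for NLRC5 without CE-26. All SUDHL6 points lie between 0.08 and 0.35, and in SUDHL16 HLA-B (5.93, or 5.98 without CE-26) and TAP1 (2.12, or 2.09) keep their place while HLA-F goes from 1.88 to 3.84.

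For each gene the change in SUDHL16 was set against that in SUDHL6 through an interaction term, with the 12 libraries fitted jointly by edgeR. It was larger in SUDHL16 for 2 of the 9 genes, beside 4.34% of 19621 genes. HLA-B differed by 5.75 log2 units (SE 0.28, edgeR adjusted p = 1.29e-06) and TAP1 by 1.80 (SE 0.21, edgeR adjusted p = 3.72e-04). HLA-F differed by 1.95 (SE 1.05, edgeR adjusted p = 0.316) and, without CE-26, by 3.59 (edgeR adjusted p = 9.64e-04). NLRC5 did not pass with CE-26 (edgeR adjusted p = 0.177) and passed without it (edgeR adjusted p = 2.12e-05). For HLA-C, HLA-E, B2M, TAP2 and TAPBP the differences lay between -0.36 and 0.38 with adjusted p from 0.346 to 0.862, and none passed without CE-26.

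Ratios within a library do not depend on the scaling between libraries. Of the reads on the 4 heavy chains, HLA-B held 1.35% (exact 95% binomial interval 0.897% to 1.94%) in CE-25, 0.882% (0.287% to 2.05%) in CE-26 and 1.25% (0.793% to 1.87%) in CE-27. In the SUDHL16-resistant libraries it held 36.6% (35.2% to 38.1%), 32.9% (31.5% to 34.3%) and 32.3% (31.2% to 33.3%). The SUDHL6 shares were 14.9% to 15.5% in the parental and 15.7% to 16.2% in the resistant libraries. The share of HLA-B was thus at most 1.35% in parental and at least 32.3% in resistant SUDHL16 libraries, while the SUDHL6 groups lay next to each other. These intervals cover counting error only.

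The TAP1 to TAP2 read ratio, the balance of the transporter's subunits on the RNA level, was 0.114, 0.185 and 0.144 in the SUDHL16-parental and 0.460, 0.440 and 0.646 in the resistant libraries. In SUDHL6 it was 0.181, 0.192 and 0.181 against 0.213, 0.218 and 0.199, higher in resistant libraries without overlap in both lines. The ratio of B2M reads to the summed heavy-chain reads was 3.82, 1.22 and 3.42 in CE-25, CE-26 and CE-27 and 1.70, 2.95 and 1.22 in the SUDHL16-resistant libraries. With CE-26 the groups overlapped, and without it both parental libraries lay above all resistant ones. In SUDHL6 this ratio stayed between 0.994 and 1.04 in all 6 libraries.

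**Figure D3:**
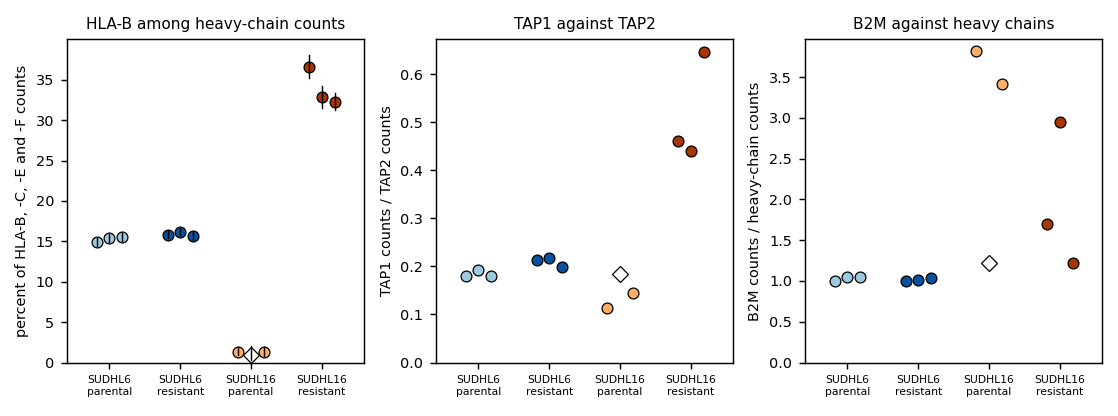
Within-library ratios in the 12 libraries: the percentage of the reads on HLA-B, HLA-C, HLA-E and HLA-F that fell on HLA-B (lines, exact 95% binomial intervals), the TAP1 to TAP2 read ratio, and the ratio of B2M reads to heavy-chain reads, each on a linear axis from 0 with CE-26 as an open diamond. HLA-B took 0.882% to 1.35% in SUDHL16-parental and 32.3% to 36.6% in SUDHL16-resistant libraries.

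Summed over the 4 heavy chains, SUDHL16 libraries held 115, 195 and 114 CPM in CE-25, CE-26 and CE-27 and 287, 201 and 338 CPM in the resistant group. CE-26 was close to the lowest resistant library. As a single summed gene the heavy chains had a log2 fold change of 0.97 (edgeR adjusted p = 0.147), which was 1.28 without CE-26 (edgeR adjusted p = 0.0216). In SUDHL6 the sum was 574 to 595 CPM in the parental and 639 to 649 CPM in the resistant libraries, a log2 fold change of 0.14 (edgeR adjusted p = 4.26e-05).

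Levels of different genes were compared as CPM per kilobase of the canonical transcript. In both SUDHL6 groups the order was B2M, HLA-E, HLA-C, HLA-B, TAPBP, TAP2, TAP1, HLA-F and NLRC5, and no neighbours in it overlapped. The SUDHL6-parental levels ran from 638 ± 6.68 CPM per kb for B2M through 135 ± 3.65 for HLA-E and 58.1 ± 0.789 for HLA-B to 0.0340 ± 0.00459 for NLRC5 (SD, n = 3). In SUDHL16-parental cells B2M (377 ± 110.4 CPM per kb) was followed by TAPBP (113 ± 27.2), HLA-C (58.3 ± 15.9), TAP2 (22.9 ± 5.49), HLA-E (18.9 ± 7.72), TAP1 (6.85 ± 0.957), HLA-F (1.17 ± 1.61), HLA-B (1.02 ± 0.0965) and NLRC5 (0.372 ± 0.645). There TAP2 overlapped with HLA-E, HLA-F with HLA-B, and HLA-B with NLRC5. In SUDHL16-resistant cells HLA-B moved to the fourth place, at 60.9 ± 15.5 CPM per kb, and overlapped with HLA-C at 74.2 ± 24.0. TAP1, at 29.95 ± 3.05 CPM per kb, overlapped with TAP2 at 28.1 ± 3.12. HLA-C also overlapped with TAPBP, TAP2 with HLA-E, and HLA-F with NLRC5.

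The heavy chains are close paralogs, and the counting tool and its handling of reads that match several genes are not given in the sources used here. Of the 50-base stretches of the canonical transcript, 2.22% of those of HLA-B, 3.75% of HLA-C, 1.48% of HLA-E and 1.68% of HLA-F also occurred in the transcripts of another of the 9 genes, and none of B2M or NLRC5 occurred in any other gene. Counting all genes, the share was 20.6% for HLA-B, of which most (18.1%) lay in an opposite-strand pseudogene, and 35.4% for HLA-F. That pseudogene (ENSG00000271581) and DHFRP2 and MIR6891, which also overlap HLA-B exons, held 0 to 5 reads in every library. A further overlapping gene, ENSG00000285647, shares 11 exonic bases and is not among the identifiers of the files. For HLA-F the shared stretches lay mostly in the opposite-strand genes ENSG00000225864 (18.8%), HLA-F-AS1 (15.0%) and RPL23AP1 (14.7%). HLA-F-AS1 held 4, 12 and 5 reads in CE-25, CE-26 and CE-27 and 6, 18 and 12 in the SUDHL16-resistant libraries. ENSG00000225864 held 0, 7 and 0 against 3, 3 and 0. For TAP1 the share was 21.3%, nearly all (20.1%) in the antisense gene PSMB8-AS1, which had 38, 0 and 28 reads in the SUDHL16-parental and 9, 122 and 183 in the resistant libraries. For TAP2 it was 35.3%, all in the readthrough gene ENSG00000250264, which held 0 to 3 reads in SUDHL16 and 0 to 83 in SUDHL6. For TAPBP it was 41.3%, mostly (39.6%) in ENSG00000289100, which is not among the identifiers of the files. Values of these genes are uncertain to that extent, and how far reads were shared or split, or how well the lines' own HLA alleles aligned to the reference, was not tested.

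Other genes of the pathway were grouped by role. Of all genes tested, 7523 of 16662 in SUDHL6 and 3002 of 15708 in SUDHL16 had an unadjusted p under 0.05. The immunoproteasome subunits, which replace constitutive ones to favour class I peptides, and the proteasome activator form a list of 5 genes. In SUDHL6 2 of the 5 were called raised, beside 4.31% of all genes tested, and none lowered. PSMB8 was at 17.3, 18.4 and 17.1 CPM against 29.8, 29.4 and 28.9 CPM, a log2 fold change of 0.74 (SE 0.06, edgeR adjusted p = 3.94e-07). PSMB9, whose gene lies next to TAP1, was at 6.93, 7.35 and 7.94 CPM against 15.1, 15.3 and 16.8 CPM, a log2 fold change of 1.08 (SE 0.08, edgeR adjusted p = 4.07e-07). The median of the list was 0.13 and all 5 were higher. In SUDHL16 none of the 5 was called by edgeR, 2 had an unadjusted p under 0.05 and the median was 0.40. PSMB8 was there at 14.7, 17.9 and 17.6 CPM against 31.3, 26.4 and 50.9 CPM, without overlap (edgeR adjusted p = 0.0783, and 0.0593 without CE-26), and PSMB9 was not called without CE-26 either (edgeR adjusted p = 0.0698).

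In SUDHL6, where 4.31% of all genes tested were called raised, 1 of 8 genes of peptide trimming, loading and folding was. This was ERAP2, which trims peptides in the endoplasmic reticulum, at 14.2, 11.6 and 14.3 CPM against 42.9, 42.3 and 42.2 CPM, a log2 fold change of 1.67 (SE 0.07, edgeR adjusted p = 3.12e-09). The list's medians were 0.08 in SUDHL6 and -0.02 in SUDHL16, where edgeR called none of the 8 and 1 had an unadjusted p under 0.05. ERAP2 (log2 fold change 0.04, or 0.44 without CE-26) was at 15.3, 27.2 and 11.6 CPM in CE-25, CE-26 and CE-27 and 14.1, 17.7 and 22.7 CPM in the SUDHL16-resistant libraries, and its change differed between the lines (-1.54 log2 units, SUDHL16 minus SUDHL6, edgeR adjusted p = 0.0228).

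Of 20 transcription factors and chromatin regulators of class I genes, 1 was called raised in SUDHL16 and none in SUDHL6. Of all genes tested, 3.2% and 4.31% were called raised in these lines, and the list's medians were 0.30 and 0.02. IRF1, an interferon-induced activator of class I promoters, was at 4.68, 11.4 and 3.66 CPM in CE-25, CE-26 and CE-27 and 24.0, 30.4 and 42.6 CPM in the resistant libraries, a log2 fold change of 2.40 (SE 0.47, edgeR adjusted p = 0.0248), or 2.96 (SE 0.35, edgeR adjusted p = 0.00137) without CE-26. CIITA, the class II regulator related to NLRC5, was at 0.386, 18.3 and 0.372 CPM against 197, 186 and 107 CPM. Its log2 fold change was 5.14 (SE 1.35, edgeR adjusted p = 0.0699) with CE-26 and 8.74 (SE 0.47, edgeR adjusted p = 6.42e-05) without it. Leaving out any single SUDHL16 library other than CE-26 ended the IRF1 call, with log2 fold changes of 2.11 to 2.59 (edgeR adjusted p = 0.0629 to 0.111). IRF2 (0.76, edgeR adjusted p = 0.172) was next in SUDHL16 by p and was not called.

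Of all 16662 genes tested in SUDHL6, 6223 passed an adjusted p of 0.05 at any fold, in either direction. Of the 20 regulators 12 did so, at changes under 1.5-fold. Among those with the smallest p were STAT2 (0.52 on the log2 scale, edgeR adjusted p = 4.16e-08), NFKB1 (-0.50, 5.20e-07) and RFX5 (0.26, 8.37e-06). STAT2 carries the interferon signal to the nucleus, RFX5 is a subunit of the complex that binds the X box of class I and class II promoters, and NFKB1 is a subunit of NF-kappaB.

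Of all genes tested, 8.96% were called in either direction in SUDHL6 and 5.3% in SUDHL16. Of the interferon receptors, kinases and their inhibitors, 9 genes, only SOCS1 was called in either line. It encodes a feedback inhibitor of JAK kinases and moved in opposite directions. In SUDHL6 it was at 2.11, 2.27 and 2.65 CPM in the parental and 1.12, 0.966 and 1.43 CPM in the resistant libraries (log2 fold change -1.01, SE 0.19, edgeR adjusted p = 0.00126). SOCS1 lost that call with glmTreat, an edgeR test against 1.5-fold (adjusted p = 0.145), and in the fit of all 12 libraries. In SUDHL16 it had 10, 0 and 0 reads in CE-25, CE-26 and CE-27 and 174, 243 and 315 in the resistant libraries (log2 fold change 5.60, SE 1.01, edgeR adjusted p = 0.0171, and 5.39 with adjusted p = 0.00579 without CE-26). Like CIITA, SOCS1 passed the filter on low counts in SUDHL16 through the resistant libraries, in which it was high. Without CE-28, CE-29 or CE-30 the SOCS1 change in SUDHL16 was 5.56 to 5.68 with edgeR adjusted p of 0.0900 to 0.102, so that call rested on all 3 resistant libraries. In the joint fit, with its shared spread, the difference between the lines passed for SOCS1 (edgeR adjusted p = 0.00198). It also passed for IRF1 (edgeR adjusted p = 0.00944) and CIITA (0.0214). The CIITA change within SUDHL16 did not pass with CE-26 (edgeR adjusted p = 0.0699).

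None of the 5 genes of class I turnover was called in either line, with medians of 0.12 in SUDHL6 and 0.37 in SUDHL16. In SUDHL6 3 had an unadjusted p under 0.05, beside 7523 of all 16662 genes tested, and in SUDHL16 none had. Of the 14 class I-like molecules 7 were tested in SUDHL6 and 9 in SUDHL16. FCGRT, the heavy chain of the neonatal Fc receptor and another partner of B2M, was lowered in SUDHL6 from 2.56, 2.74 and 3.39 CPM to 0.522, 0.619 and 0.385 CPM (log2 fold change -2.50, SE 0.22, edgeR adjusted p = 1.75e-06). In SUDHL16 it was at 7.11, 11.7 and 7.63 CPM against 2.55, 1.88 and 2.47 CPM, without overlap (log2 fold change -1.92, SE 0.47, edgeR adjusted p = 0.0525, and 0.0362 without CE-26). MR1, MICA and MICB, with changes of 0.31, 0.49 and 0.12, passed an adjusted p of 0.05 in SUDHL6 under 1.5-fold. ULBP1 (2.23), CD1C (-0.79) and CD1D (2.45) were next in SUDHL16 and were not called. Without CE-26 CD1D was called raised (4.83, edgeR adjusted p = 0.0173). That call rested on 8 and 0 reads in CE-25 and CE-27 against 86, 97 and 224 in the resistant libraries. CD1D then passed the filter on low counts through the resistant libraries. MICA had 0 reads in all 3 SUDHL16-parental libraries and 25, 20 and 13 in the resistant ones. Within SUDHL16 it passed the filter on low counts only without CE-26, through resistant libraries, and was then called raised too (edgeR adjusted p = 0.0360). In the fit of all 12 libraries its change was larger in SUDHL16 than in SUDHL6 (edgeR adjusted p = 0.00418). The fitted size of that difference, 7.13 log2 units, rests on 0 parental reads in SUDHL16 and is not a measured one. Of 11 class I pseudogenes, 3 were tested in SUDHL6 and 2 in SUDHL16, and none was called (HLA-H, HLA-J and HLA-L, between -0.66 and 0.11). None had an unadjusted p under 0.05.

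**Figure D4:**
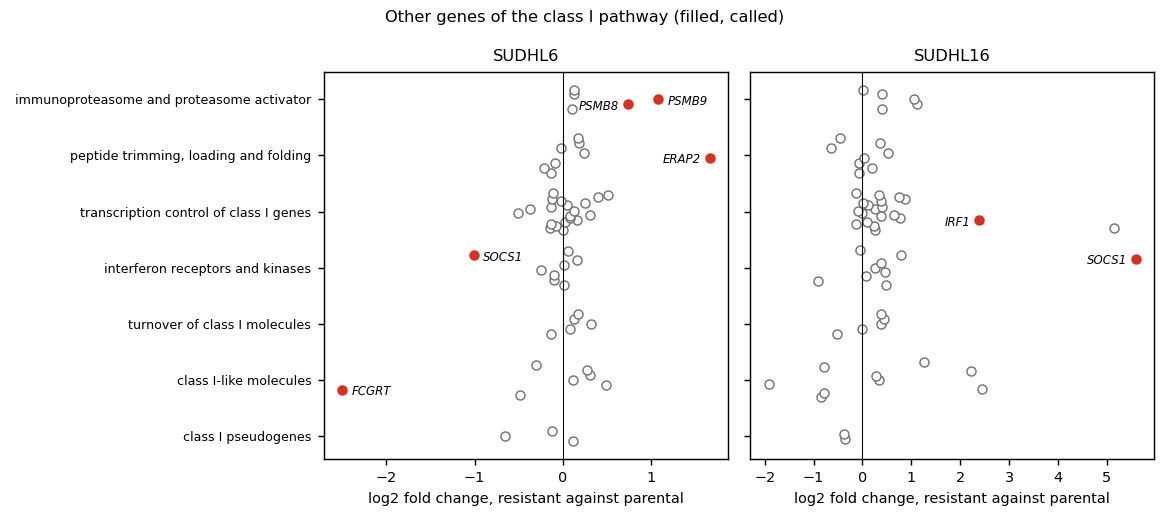
Log2 fold change, resistant against parental, of every tested gene of the 7 pathway lists in SUDHL6 (left) and SUDHL16 (right), with called genes filled and named. In SUDHL6 PSMB8, PSMB9 and ERAP2 were raised and SOCS1 and FCGRT lowered, and in SUDHL16 IRF1 and SOCS1 were raised.

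Of all genes tested, 4.31% were called raised in SUDHL6, 3.2% in SUDHL16 and 6.73% in SUDHL16 without CE-26. Called lowered were 775 of 16662, 330 of 15708 and 541 of 16280. The chromosome 6 genes were set beside the other protein-coding genes that start between HLA-F and TAPBP. In SUDHL6 115 such neighbours were tested, 4 were called raised (PSMB8 and PSMB9 among them) and 1 lowered, with a median log2 fold change of 0.07. In SUDHL16 99 were tested, 6 were raised and 1 lowered, with a median of 0.12. Without CE-26 103 were tested, 11 were raised and 2 lowered, with a median of 0.20. Of the 6 raised, 5 were class II genes, and without class II genes the median of the other 89 was 0.07. Those class II genes included larger changes than that of HLA-B (5.93), namely HLA-DRB1 (13.6), HLA-DQA2 (10.5) and HLA-DRA (9.28). These class II sizes are fitted values, without the count floor used for NLRC5. The raised gene outside class II was AIF1 (2.79). Within 1 Mb of B2M, 19 genes were tested in SUDHL16, 1 was higher, 2 (5 without CE-26) were called lowered and the median was -0.74 (-0.53 without CE-26), against 0.49 (0.28) for B2M itself. In SUDHL6 the 22 neighbours of B2M had a median of 0.08. Within 1 Mb of NLRC5, the 16 genes tested in SUDHL16 had a median of 0.46 (0.21 without CE-26) and 2 (4 without it) were called raised, and the 18 in SUDHL6 had a median of -0.07.

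**Figure D5:**
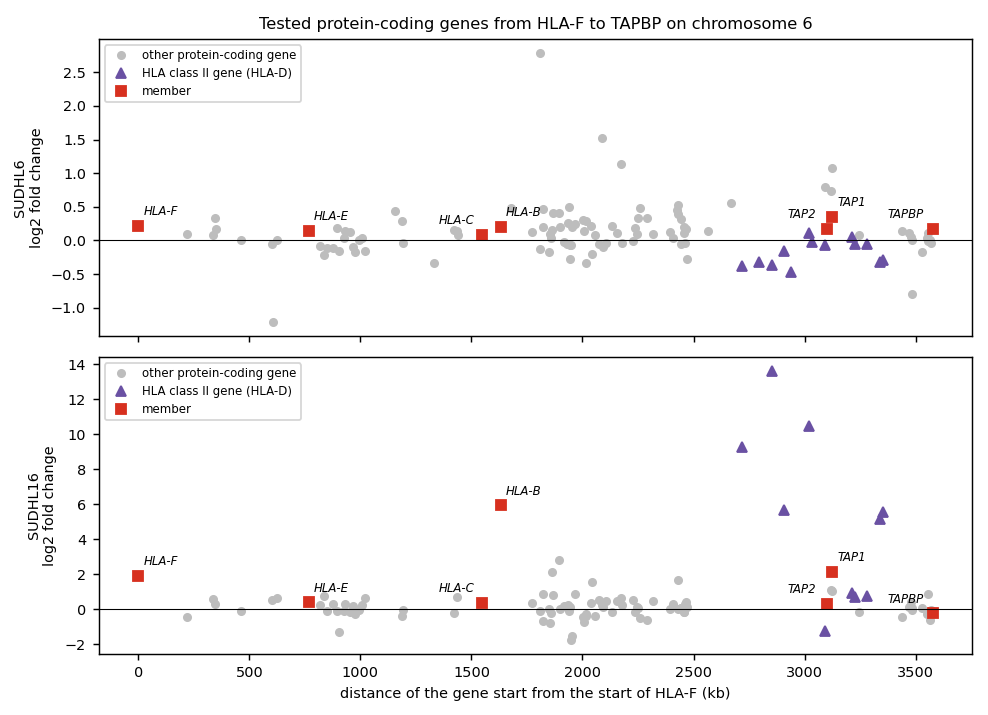
Log2 fold change of tested protein-coding genes against the distance in kb of the gene start from the start of HLA-F, for SUDHL6 (top) and SUDHL16 (bottom, wider axis), with the 7 class I presentation genes as squares and class II genes as triangles. In SUDHL16 HLA-B (5.93) and TAP1 (2.12) lie above the neighbours' median of 0.12, several class II genes (up to 13.6) lie above HLA-B, and AIF1 (2.79) and LST1 (2.14, not called) lie just above TAP1.

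By likeness of profile over the 12 libraries, after each line was centred on its own mean of log2 CPM, the protein-coding genes of at least 5 CPM closest to HLA-B were ALPL (Pearson's r = 0.997), CIB1 (0.995) and HLA-DQA2 (0.994), among 8858 compared. Those closest to NLRC5 were HLA-DPB1 (0.983), APOL6 (0.982) and CIITA (0.976), and those closest to B2M were FAM217B (0.990), FBXO43 (0.976) and PLEKHF2 (0.970). None of those closest to NLRC5 was called in SUDHL16 with CE-26 (edgeR adjusted p = 0.0699 to 0.532). In SUDHL6 they were lower, with log2 fold changes of -0.89 to -0.15. The likenesses are descriptions, as libraries of a line share its kit and sequencer, while depth varied and CE-26 stood apart.

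Class I RNA is carried by most cell types, so markers of other cells were summed in each group. Fewer cells of a type and less RNA per cell cannot be told apart in such bulk libraries. In SUDHL6 the T-cell, natural killer, myeloid, fibroblast and endothelial lists each summed to at most 2.21 CPM in any library. In SUDHL16, the summed T-cell list of 5 genes was 1.49, 11.7 and 2.86 CPM in CE-25, CE-26 and CE-27 and 11.6 to 13.7 CPM in the resistant libraries, where CD3D, CD2 and CD5 were at 0 and CD3E made up most of the sum. CD3E was called raised (log2 fold change 2.59, edgeR adjusted p = 0.0455, and 3.34 with adjusted p = 0.00131 without CE-26). The 3 fibroblast markers summed to 19.7 to 35.5 CPM in the parental and 0 to 0.425 CPM in the resistant libraries, through DCN (19.7, 25.5 and 19.7 CPM in CE-25, CE-26 and CE-27). COL1A1 was at 0 in all SUDHL16-parental libraries. The natural killer, myeloid and endothelial lists summed to 18.9, 10.7 and 20.7 CPM in CE-26, to at most 2.09, 1.24 and 0 CPM in CE-25 and CE-27, and to at most 0.340, 0.536 and 1.66 CPM in the resistant libraries. Their part in the class I values was not tested.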

How the data were processed

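Gene counts of 12 RNA-sequencing libraries were used, 3 from each of SUDHL6-parental, SUDHL6-resistant, SUDHL16-parental and SUDHL16-resistant cells. The authors trimmed reads with TrimGalore, aligned them to GRCh38 with HISAT2 and used StringTie, and deposited whole-number counts per Ensembl gene without normalization. The counting tool, strand setting and annotation are not given in the sources used here, so antisense and overlapping genes could have shared reads. Symbols and positions came from GENCODE 44, which held 56558 of the 60675 identifiers. The other 4117 can include copies of HLA genes on alternate haplotypes and were not assigned to any gene.

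Each line was fitted alone with edgeR 4.0.16 in R 4.3.3, as kit and sequencer differ between lines. Genes were filtered with filterByExpr (minimum count 10), scaled by TMM (CPM are on this scale) and tested two-sided with the quasi-likelihood test over all genes. Calls required an adjusted p below 0.05 together with a 1.5-fold difference, the limits used in the study. For the difference between lines, an interaction term was tested with the 12 libraries fitted jointly. Canonical transcripts of GENCODE were cut into 50-base stretches to find shared sequence. Promoters from RefSeq were aligned globally (match 1, mismatch -1, gap opening -2, gap extension -0.5). The steps were tested on simulated data. Python 3.11.15 with pandas 2.3.3 was used for the rest. Fibroblast and other marker lists and the pathway lists were written from general knowledge.

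The genes and lists were chosen with earlier results of these data known. All 9 genes are named. Of the pathway lists, every called gene is named for lists of up to 9 genes, and otherwise the 4 genes with the smallest adjusted p in a line. One gene that this would name is not reported here. PSMB8 in SUDHL16, ERAP2 in SUDHL16 and the overlapping genes were named after their values were seen. Alternatives were DESeq2 1.42.0, upper-quartile scaling, library totals, no filter, protein-coding genes only, one fit of all 12 libraries, limma 3.58.1 voom with quality weights, glmTreat against 1.5-fold, summed heavy chains, and each library left out in turn.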

Additional observations from a re-analysis of the deposited data

Results flagged for a closer look

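The change of HLA-B was larger in SUDHL16 than in SUDHL6 by 5.75 log2 units in the test of the difference itself (edgeR adjusted p = 1.29e-06), with means of 1.56 and 93.5 CPM in SUDHL16 and 89.3 and 102.3 CPM in SUDHL6, and the resistant libraries were higher in 3 of 3 in both lines. The change of TAP1 was larger in SUDHL16 by 1.80 log2 units (edgeR adjusted p = 3.72e-04), with means of 18.4 and 80.4 CPM in SUDHL16 and 20.3 and 25.9 CPM in SUDHL6. Both tests share a single estimate of spread per gene between lines whose spreads differed. What sets these changes apart from those of HLA-C and TAP2 was not tested.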

How the results depend on the processing

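HLA-B and TAP1 stayed called in SUDHL16 under all 14 alternatives run for them, with log2 fold changes of 5.80 to 6.11 (adjusted p up to 0.00490) and 2.03 to 2.26 (adjusted p up to 0.0141), and their differences between the lines ran from 5.61 to 5.96 and from 1.66 to 1.99. The count of the 9 genes called in SUDHL16, 2 with edgeR, was 4 with voom and quality weights, 1 with the heavy chains summed, which turns 4 genes into 1, and 2 to 4 with single libraries left out, the 4 without CE-26. In SUDHL6 it stayed 0 under all 15 alternatives, and the 7 genes that passed at any fold were 6 or 7 with single libraries left out, 0 in the fit of all 12 libraries and 0 with glmTreat. Genes whose change differed between the lines, 2 with edgeR, were 4 with voom and 2 to 4 with single libraries left out, again 4 without CE-26. The difference of TAP2 between the lines, 0.14, turned to -0.037 with voom and ran from -0.0946 (without CE-26) to 0.299 with single libraries left out, and passed in none of these. HLA-F was called in SUDHL16 with voom (3.72) and without CE-26 (3.84). NLRC5 was called with no filter (4.18), with voom and without CE-26. The other pathway genes called in SUDHL16, 2 with edgeR, numbered 8 with DESeq2, 9 in the fit of all 12 libraries, 11 with voom, and 0 to 6 with single libraries left out, 0 without any one resistant library and 6 without CE-26. In the runs with 0 called, 9 or 10 had an unadjusted p under 0.05, beside 3002 of all 15708 genes in the main SUDHL16 fit. In SUDHL6 their count of 5 fell to 2 in the fit of all 12 libraries, where PSMB8, PSMB9 and SOCS1 were lost. It was 4 with glmTreat, where SOCS1 was lost, and 5 in every run with a library left out. Of 412 values per gene and setting, judged by the call (adjusted p under 0.05 and 1.5-fold) or, for differences between the lines, by the adjusted p alone, 400 kept direction and verdict, 10 were newly past that limit and 2 turned direction. The adjusted p without a fold limit, as given above for SUDHL6, is not part of that count. The causes were not tested. No paired analysis was possible because the labels give no replicate numbers. HLA-B in SUDHL16-parental libraries rested on 5 to 28 reads, and NLRC5 in SUDHL6 on 2 to 9, which limits the precision of both.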
